A study of Mus musculus with 31 samples.

Results

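The heat shock proteins examined were 10 listed genes of mouse: Hspa1a, Hspa1b, Hspa8, Hsp90aa1, Hsp90ab1, Dnajb1, Hspb1, Hsph1, Hspe1 and Hspd1. Probes were taken where the array's probe annotation gave 1 of these as their only gene name. This rule found 8 probes of 7 genes among 16874 probes with a single gene name, which covered 15096 genes. Hspa8 had 2 probes, and Hspa1b, Hsp90aa1 and Hsp90ab1 were not measured by a probe of that kind. RNA of 31 BXD recombinant inbred strains, bred from C57BL/6J and DBA/2J mice, had been hybridised to spotted 2-colour arrays, with 1 array for each strain. Each strain's RNA was a pool of 3 males aged 8 weeks in the red channel. The green channel of every array held RNA of C57BL/6J males of the same age, a common reference whose own spread was not measured. The titles of the samples name kidney and the source fields name whole brain, for strain and reference alike, so the tissue is not settled. Markers of either tissue cannot settle it here, since the values are ratios between 2 samples of 1 tissue. The strains were placed in BXD33-42 (7 strains) and BXD1-32 (24 strains), from background knowledge of 2 rounds of breeding that the labels do not give.

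Heat shock proteins are chaperones, which bind unfolded or newly made proteins and help them reach or regain their shape. Hsp70 proteins hold and release their clients in cycles of ATP hydrolysis, with J proteins such as Dnajb1 starting the cycle and Hsp110 proteins such as Hsph1 resetting it by nucleotide exchange. Hsp60 (Hspd1) and its lid Hsp10 (Hspe1) form the folding chamber of mitochondria, and small heat shock proteins such as Hspb1 hold damaged proteins without using ATP. On heat or other stress the transcription factor HSF1 binds heat shock elements, which are inverted repeats of the unit GAA spaced by a pair of bases, and raises transcription of many of these genes. In the kidney, tubule cells make Hspa1a and Hspb1 after ischaemia.

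The promoters of the members that carry the results are printed from RefSeq, build GRCm38.p6, because Hspe1 and Hspd1 lie head to head and share a heat shock element while their values differed. Each line gives the 150 bases before a transcript start, 5' to 3' on the gene's own strand, with capitals on every match to GAANNTTC or TTCNNGAA. Both motifs read the same on either strand, and neighbouring matches overlap by sharing a unit. Hspe1 is on chr1:55087998-55088147 (plus strand), before the gene's start, and Hspd1 on chr1:55087933-55088082 (minus strand), before the inner of its annotated starts. Hspb1 is on chr5:135887769-135887918 (plus strand), Hspa1a on chr17:34972157-34972306 (minus strand) and Dnajb1 on chr8:83608025-83608174 (plus strand).
Hspe1: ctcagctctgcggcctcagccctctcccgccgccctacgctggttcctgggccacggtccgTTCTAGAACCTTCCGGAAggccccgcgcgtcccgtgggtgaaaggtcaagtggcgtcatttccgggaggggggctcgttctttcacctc
Hspd1: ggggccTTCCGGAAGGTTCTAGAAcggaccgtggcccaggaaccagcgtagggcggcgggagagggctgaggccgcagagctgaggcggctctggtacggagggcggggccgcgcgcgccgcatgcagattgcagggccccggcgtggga
Hspb1: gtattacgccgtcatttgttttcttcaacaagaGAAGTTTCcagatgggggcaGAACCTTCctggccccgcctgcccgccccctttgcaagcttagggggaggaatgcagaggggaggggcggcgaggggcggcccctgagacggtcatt
Hspa1a: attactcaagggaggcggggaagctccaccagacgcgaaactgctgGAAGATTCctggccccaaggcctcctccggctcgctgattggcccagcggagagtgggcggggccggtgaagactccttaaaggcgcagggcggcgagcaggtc
Dnajb1: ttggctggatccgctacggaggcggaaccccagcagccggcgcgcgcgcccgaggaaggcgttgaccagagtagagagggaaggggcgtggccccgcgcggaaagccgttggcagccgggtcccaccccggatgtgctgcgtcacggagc

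The Hspe1 and Hspd1 stretches share 85 bases, and the capitals in them are the same 18 base pairs read from opposite strands. In this element 4 units follow each other in the order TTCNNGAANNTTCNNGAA. Of 32851 windows of 300 bases (250 before and 50 after each RefSeq transcript start), 5 held this order (0.0152%), and those of Hspe1 and Hspd1 were 2 of them. The outer Hspd1 start lies 95 bases past the Hspe1 start, and its window held no match. The Hspb1 stretch held GAANNTTC at 117 and 97 bases before the start. The Hspa1a stretch held 1 match at 104 bases before the start and differed from that of Hspa1b in 1 of 150 bases. Hsph1, not printed, had TTCNNGAA at 33 bases before an annotated start, and TTCNNGAA and GAANNTTC at 36 and 41 bases after that start. Before its other listed start the match was at 54 bases. Dnajb1 had neither motif in the windows of its annotated starts. GAANNTTC was found in 7.86% of all windows, TTCNNGAA in 8.52% and either in 15.1%, so a single match is common. Hspa8, Hsp90aa1 and Hsp90ab1 are named only. These matches describe letters in a window and not binding, which was not measured.

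The deposited value of a probe is a log2 ratio, read here as strain over C57BL/6J. The labels do not state that direction or the base of the logarithm. A log2 ratio of 1 is then a doubling over the reference, and 0 is no difference from it. Values on the arrays ran from -4.07 to 4.95. Every array had the same set of sorted values with a median of 0.0127. Array values correlated with each other at -0.0926 to 0.808. BXD15 and BXD38 were left out together in a repeat of the tests, and their distance from the other arrays is not given here. The place of a spot in a repeating block of 480 explained 36.7% of the variance of the mean over strains, and 6 of the 8 heat shock probes sat at the neighbouring places 87 and 88. The median mean of all spots was 0.02 at place 87 and -0.12 at place 88. Values with the place removed are therefore given beside means and gene likeness where a call is lost or the size moves by more than about 1.5 times.

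The first comparison asked which heat shock transcripts stood above or below C57BL/6J over the panel as a whole. Hspe1, Hspb1, the first Hspa8 probe and, narrowly, Dnajb1 were higher in the strains, Hspa1a and the second Hspa8 probe were lower, and Hsph1 and Hspd1 did not pass the test. That is 6 of 8 probes past an adjusted p of 0.05 (limma, Benjamini-Hochberg over 23040 probes), 4 higher and 2 lower. Of all probes 57.5% passed, 27.2% higher and 30.3% lower, so the share of heat shock probes that passed is near the background and is no result about them. Over genes, 5 of 7 passed, 4 higher and 1 lower, against 55.8% of 15096 genes (26.5% higher and 29.3% lower). Since the dyes were never swapped, a mean over strains holds strain, dye and reference effects together and these cannot be told apart. The labels name no replicate arrays of a strain, so the p-values measure the spread between arrays of different strains, in which strain and array effects are joined.

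Hspa8, the constitutive Hsp70 of the cytosol, gave opposite values with its 2 probes. Probe 1 had a lowest log2 ratio of -0.47 in BXD13, a median of 0.50 and a highest of 4.01 in BXD23. It was above 0 in 28 of 31 strains and above 1 in 9, and BXD38 (3.42) and BXD15 (2.51) followed BXD23. Its SD over strains was 1.02, above that of 97.9% of all probes. The mean was 0.87 ± 0.172 (SE, n = 31, limma adjusted p = 6.00e-05), a fold of 1.83 over the reference. Hspa8 probe 2 ran from -2.13 in BXD15 through a median of -0.41 to 0.70 in BXD14, and was above 0 in 11 of 31 strains. Its mean was -0.35 ± 0.114 (SE, n = 31, limma adjusted p = 0.00883), and -0.24 with the place removed (limma adjusted p = 0.0496). Within each array probe 1 exceeded probe 2 by 1.23 on average (SD 1.30, SE 0.233), with the higher log2 ratio in 25 of 31 strains. A sign-flip permutation test gave p = 1e-05, the smallest that 100000 permutations can give. It was not among the planned tests and its p is not adjusted. The 3 strains highest by probe 1 were all below 0 by probe 2, as were 20 of the 31 strains in total. Over the 31 strains the probes correlated at r = -0.153 (permutation p = 0.412) and Spearman's rho = -0.0855 (permutation p = 0.649), and r was -0.224 without the 2 strains farthest from the median of probe 1. Within BXD33-42 r was 0.0742 and within BXD1-32 it was -0.181. BXD15 had the lowest value of probe 2 and the third highest of probe 1. The mean of both probes, 0.26 ± 0.0965 (SE, n = 31, limma adjusted p = 0.0216), therefore averages values of opposite sign. Which of the probes measures Hspa8 was not tested, since no probe sequence was used here.

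**Figure D1:**
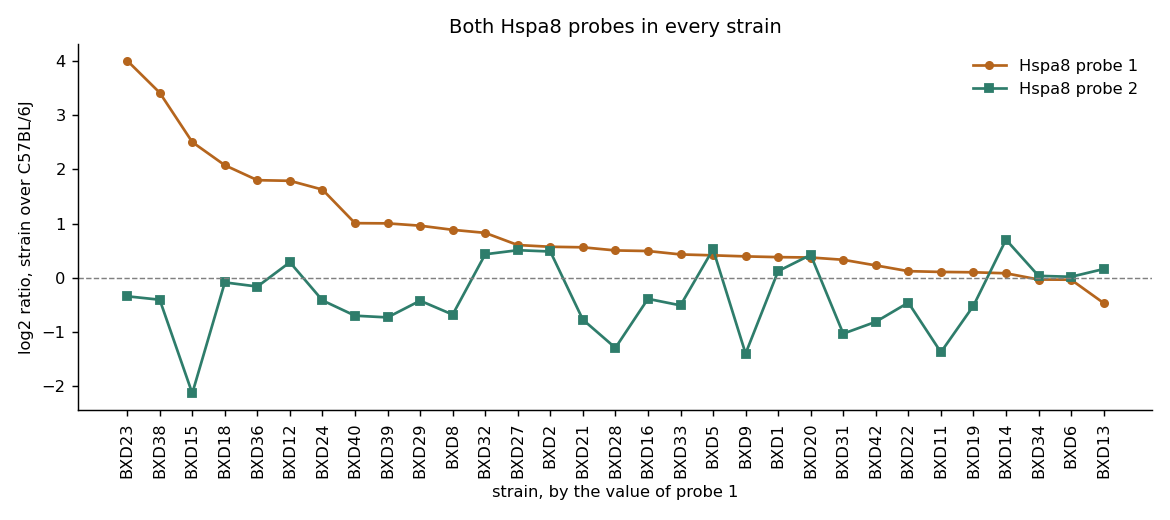
Log2 ratio (strain over C57BL/6J, y axis) of both Hspa8 probes in each of the 31 strains (x axis, ordered by probe 1). Circles are probe 1 and squares probe 2. Probe 1 falls off from 4.01 in BXD23, while probe 2 shows no matching order and reaches its lowest value, -2.13, in BXD15.

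Hspa1a encodes the stress-inducible Hsp70, which is scarce in unstressed cells of most tissues. Its probe ran from -1.79 in BXD11 through a median of -0.24 to 0.60 in BXD33, with BXD19 (-1.18) next to the lowest. It was above 0 in 9 of 31 strains and below -1 in 3. The mean was -0.27 ± 0.0881 (SE, n = 31, limma adjusted p = 0.0102), a fold of 0.831 against the reference. With the place removed the mean was -0.16 (limma adjusted p = 0.0415). The coding sequences of Hspa1a and Hspa1b are nearly identical, and how much each contributes to this probe was not tested.

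Dnajb1, the Hsp40 that hands clients to Hsp70, stayed close to the reference. Its values ran from -0.52 in BXD38 through a median of 0.13 to 0.63 in BXD42, and 23 of 31 strains were above 0. The SD of 0.272 was the smallest of the 8 probes. The mean was 0.12 ± 0.0509 (SE, n = 31, limma adjusted p = 0.0404). It missed the threshold when any of 11 strains was left out, with an adjusted p of up to 0.0718, and with the place removed it was 0.08 (limma adjusted p = 0.128). Those strains were BXD2, BXD5, BXD6, BXD11, BXD12, BXD13, BXD14, BXD18, BXD20, BXD27 and BXD42.

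Hsph1, the Hsp110 that exchanges nucleotide on Hsp70, had no mean difference past the test. It was above 0 in 15 of 31 strains, with -0.83 in BXD19 at the low end, a median of -0.02 and 1.25 in BXD27 at the high end. BXD6 followed at 0.92 and all other strains were at or below 0.42. The mean was 0.02 ± 0.0703 (SE, n = 31, limma adjusted p = 0.835), with a 95% interval of -0.12 to 0.16.

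The pair of the mitochondrial folding chamber had unlike ratios to the reference. Hspe1, the Hsp10 lid, had the highest mean of the 8 probes. Its values ran from -0.37 in BXD21 through a median of 0.82 to 2.34 in BXD12, with 2.19 in BXD13 and 2.10 in BXD2 next. It was above 0 in 29 of 31 strains, BXD15 (-0.11) and BXD21 being the exceptions, and above 1 in 14. The mean was 0.94 ± 0.115 (SE, n = 31, limma adjusted p = 2.76e-08), a fold of 1.92, and 0.90 with the place removed. It exceeded the mean of 97.7% of all probes. Hspd1, the Hsp60 barrel, was above 0 in 16 of 31 strains, with -1.08 in BXD27 at the low end, a median of 0.04 and 0.65 in BXD16 at the high end. Its mean was 0.01 ± 0.0719 (SE, n = 31, limma adjusted p = 0.943), with a 95% interval of -0.14 to 0.15. Removal of the place gave 0.12 (limma adjusted p = 0.202). The Hspe1 ratio exceeded the Hspd1 ratio by 0.94 on average (SD 0.772, SE 0.139) and was the higher in 29 of 31 strains (sign-flip permutation p = 1e-05, the smallest that 100000 permutations can give). That test was not among the planned ones either, and its p is not adjusted for the choice of this pair. With the place removed the difference was 0.79 and 27 strains had it. The largest difference, 2.68, was in BXD27, where Hspe1 was at 1.60 and Hspd1 at its lowest. Such a difference says that the ratios of the probes were unequal and not that Hspd1 did not change. Strain, dye and reference effects in it cannot be told apart.

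Hspb1, the small heat shock protein Hsp27, was higher than in the reference in nearly all strains. It ran from -0.07 in BXD15 through a median of 0.40 to 1.21 in BXD31, with 1.16 in BXD12 and 1.00 in BXD14 next. Only BXD15 and BXD38 (-0.03), the arrays left out together in a repeat, were below 0. The mean was 0.48 ± 0.0631 (SE, n = 31, limma adjusted p = 1.05e-07), a fold of 1.40, and 0.44 with the place removed. The SD over strains was 0.351, against 0.673 for Hspe1 and 1.02 for Hspa8 probe 1. In bulk RNA, fewer cells of a type and less RNA per cell cannot be told apart, for this and every other member.

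**Figure D2:**
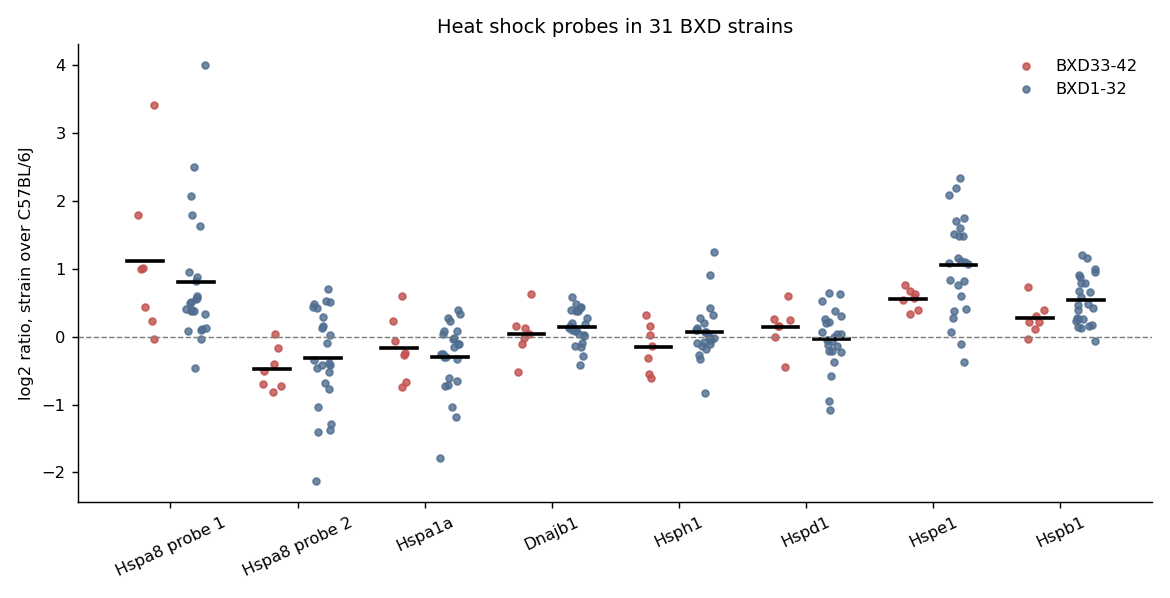
Log2 ratio (strain over C57BL/6J, y axis) of the 8 heat shock probes (x axis), 1 point for each strain, BXD33-42 (7 strains) in red left of BXD1-32 (24 strains) in blue, with a bar at each group mean. Hspe1 in BXD33-42 lies between 0.34 and 0.76, inside the range of -0.37 to 2.34 in BXD1-32.

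In order of the mean log2 ratio, the probes were Hspe1 (0.94), Hspa8 probe 1 (0.87), Hspb1 (0.48), Dnajb1 (0.12), Hsph1 (0.02), Hspd1 (0.01), Hspa1a (-0.27) and Hspa8 probe 2 (-0.35). The 95% intervals of Hspe1 (0.71 to 1.18) and Hspa8 probe 1 (0.52 to 1.22) overlapped, as did those of Dnajb1 (0.02 to 0.23), Hsph1 and Hspd1, and those of Hspa1a (-0.45 to -0.09) and Hspa8 probe 2 (-0.58 to -0.12). That of Hspb1 (0.35 to 0.61) reached into that of Hspa8 probe 1 and lay above those of Dnajb1, Hsph1 and Hspd1.

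The second comparison set BXD33-42 against BXD1-32. None of the 8 probes and none of the 7 genes passed (limma, adjusted p from 0.441 to 0.868 over probes and from 0.428 to 0.911 over genes), and the groups overlapped for each probe. In this comparison 0.00868% of probes (2 of 23040) and 0.00662% of genes (1 of 15096) passed, all lower. Of the probes, 2904 had an unadjusted p under 0.05, none of them a heat shock probe. The largest difference was that of Hspe1, which had a lowest value of 0.34, a median of 0.57 and a highest of 0.76 in BXD33-42, against -0.37, 1.09 and 2.34 in BXD1-32. The means were 0.56 (SD 0.152, n = 7) in BXD33-42 and 1.06 (SD 0.725, n = 24) in BXD1-32, a difference of -0.50 ± 0.266 (SE, limma adjusted p = 0.441). The 7 strains of BXD33-42 lay close together in the lower middle of the wide range of BXD1-32, and the difference in spread was not tested. Hspb1 averaged 0.28 (SD 0.240, n = 7) in BXD33-42 and 0.54 (SD 0.360, n = 24) in BXD1-32, a difference of -0.26 ± 0.146 (SE, limma adjusted p = 0.461). The other differences ran from -0.23 (Hsph1) to 0.32 (Hspa8 probe 1). The 95% intervals were wide, from -1.04 to 0.04 for Hspe1 and from -0.52 to 1.16 for Hspa8 probe 1.

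Whether the members varied together over strains was asked next. Of 21 pairs of member genes, none had a correlation past an adjusted p of 0.05 and 3 had an unadjusted permutation p under 0.05. The median r was 0.0957 and the range -0.307 to 0.480. The highest was that of Dnajb1 with Hsph1, both helpers of Hsp70, at r = 0.480 (permutation p = 0.0062, adjusted over the 21 pairs 0.130) and rho = 0.370 (permutation p = 0.0409). It was 0.526 within BXD33-42, 0.452 within BXD1-32 and 0.466 without the 2 strains farthest from the median of Dnajb1. Both spots were at place 87, and with the place removed the highest r of any of the 21 pairs was 0.393. Hspe1 correlated with Hspb1 at 0.419 (permutation p = 0.0191, adjusted 0.201) and with Hspa1a, whose spot is next to its own, at 0.387 (permutation p = 0.0308, adjusted 0.216). The lowest was that of Hspd1 with Hsph1, at -0.307 (permutation p = 0.0938, adjusted 0.412). Hspd1 and Hspe1, which share a promoter region, correlated at r = 0.0396 (permutation p = 0.834) and rho = 0.0698 (permutation p = 0.71). The r was 0.545 within BXD33-42, 0.0867 within BXD1-32 and 0.279 without the 2 strains farthest from the median of Hspd1, BXD27 and BXD18. In those strains Hspd1 was at -1.08 and -0.95 and Hspe1 at 1.60 and 1.48.

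With each Hspa8 probe taken alone, in a form of the test added after seeing the data, 1 of 28 pairs passed. Hspa8 probe 2 correlated with Hspe1 at r = 0.683 (permutation p = 3e-05, adjusted over the 28 pairs 0.00084) and rho = 0.689 (permutation p = 6e-05). The r was 0.673 without the 2 strains farthest from the median of probe 2 and 0.580 with the place removed. Within BXD1-32 it was 0.718. Within BXD33-42, whose 7 Hspe1 values span only 0.34 to 0.76, it was -0.325, and neither that value nor the difference between the groups was tested. Hspa8 probe 1 correlated with Hspe1 at -0.136 (permutation p = 0.467). The difference between these correlations was not tested.

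**Figure D3:**
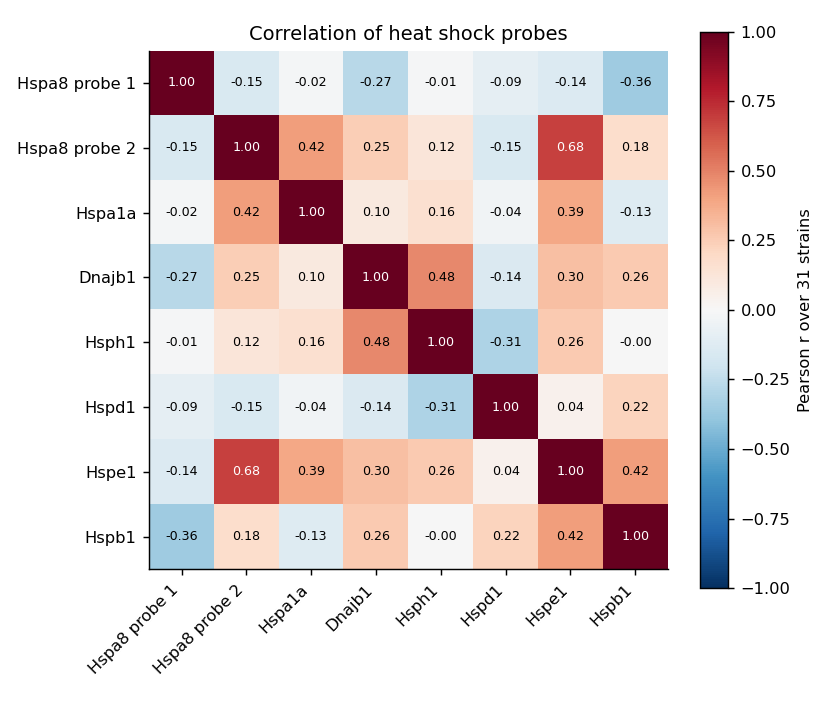
Pearson correlation over the 31 strains for each pair of the 8 heat shock probes, as numbers and colour (scale from -1 to 1). Off the diagonal the values run from -0.358 (Hspa8 probe 1 with Hspb1) to 0.683 (Hspa8 probe 2 with Hspe1), and the Hspa8 probes correlate with each other at -0.153.

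Marker genes of other cells and the main axis of difference between arrays moved with some members. The first principal component of all probes, whose sign is arbitrary, held 20.6% of the variance. It correlated with Hspb1 at r = -0.589 (permutation p = 0.00061, adjusted over 8 relations 0.00488; rho = -0.636, permutation p = 0.00015) and with Hspa8 probe 1 at r = 0.504 (permutation p = 0.00265, adjusted 0.0106; rho = 0.442, permutation p = 0.0138). Without the 2 strains farthest from the median of the component these were -0.537 and 0.559. They were -0.351 and 0.557 within BXD33-42 and -0.580 and 0.476 within BXD1-32. Within BXD1 to BXD14, however, they were -0.147 and -0.153 over 10 strains. Over 5 lists of cell type markers and 1 of immediate early genes, which respond fast to stress and handling, 8 of 48 relations passed. The closest was that of Hspe1 with the mean of 10 genes of the kidney proximal tubule, at r = 0.742 (permutation p = 1e-05, the smallest possible, adjusted 0.00048) and rho = 0.790 (permutation p = 1e-05). It was 0.820 within BXD33-42, 0.747 within BXD1-32, 0.732 without the 2 strains farthest from the median of the list, 0.664 with the place removed and 0.682 with the first component removed. Of the 10 tubule genes 9 correlated positively with Hspe1, from Kap, Cubn and others up to Lrp2 (0.715), the endocytic receptor megalin, and Slc22a12 (0.735), the urate transporter. Fbp1, an enzyme of gluconeogenesis, went the other way at -0.397. The list mean ran from -0.92 to 0.22 in BXD33-42 and from -0.27 to 1.37 in BXD1-32, and against the reference 4 of its 10 genes were higher and 1 lower. The part of tubule content in the Hspe1 values was not tested.

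**Figure D4:**
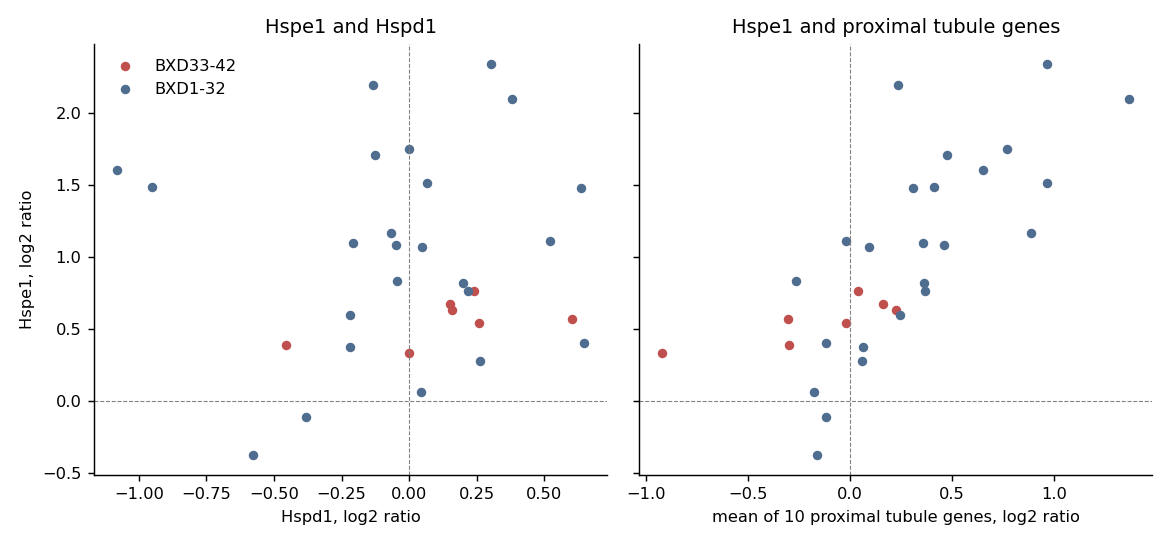
Hspe1 log2 ratio (y axis, both panels) against that of Hspd1 (left) and against the mean log2 ratio of 10 proximal tubule genes (right), 1 point for each strain, BXD33-42 in red and BXD1-32 in blue. The points show no slope with Hspd1 (r = 0.0396) and climb with the tubule genes (r = 0.742).

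The other relations with marker lists were weaker. Hspa8 probe 2 correlated with the tubule list at r = 0.586 (permutation p = 0.00066, adjusted 0.0106; rho = 0.639, permutation p = 0.00015), with 0.688 within BXD1-32 and 0.0563 within BXD33-42. It also correlated with the macrophage list at 0.516 (permutation p = 0.00362, adjusted 0.0290; rho = 0.338, permutation p = 0.063), which was 0.241 without BXD15 and BXD38. Hspa8 probe 1 correlated with the skeletal muscle list at r = 0.566 (permutation p = 0.00059, adjusted 0.0106; rho = 0.500, permutation p = 0.00483), and Hspb1 with the same list at -0.509 (permutation p = 0.00362, adjusted 0.0290; rho = -0.530, permutation p = 0.00257). These were 0.317 and -0.0892 with the first component removed. With the neuron list they correlated at 0.490 and -0.494 (both adjusted 0.0292 by permutation), and at 0.230 and -0.153 with the first component removed. Within BXD1 to BXD14, Hspa8 probe 1 had an r of 0.101 with the muscle list and -0.276 with the neuron list. For Hspb1 these were -0.279 and -0.434. Dnajb1 correlated with the glia list at 0.534 (permutation p = 0.00198, adjusted 0.0238; rho = 0.425, permutation p = 0.018). This was 0.400 without the 2 strains farthest from the median of the glia list and 0.403 with the place removed. Against the reference, 6 of 7 measured muscle genes were lower, 3 of 8 neuron genes were higher and 3 lower, 2 of 7 glia genes were higher and 2 lower, and 2 of 8 macrophage genes were higher. Of all genes 26.5% were higher and 29.3% lower. In the neuron list, 1 gene was higher and 2 were lower with the place removed. No heat shock probe had a relation past the test with the immediate early genes, of which 5 of 11 were higher and 4 lower against the reference, from Egr2 (-0.94) to Jun (0.66). What part these cell types have in the values was not tested.

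The genes whose pattern over the 31 strains was most like that of a member are given by Pearson correlation, as a description. For Hspe1 they were Pmel (0.873), a pigment cell protein, Arpp19 (0.811), a phosphatase regulator, and Guca2b (0.803), which encodes uroguanylin. With the place removed these were 0.873, 0.759 and 0.769. For Hspb1 they were Hes6 (0.794), Rilpl2 (0.789) and Wdr45b (0.778). Hspd1 was closest to Dhrs1 (0.760), Atg5 (0.685), an autophagy gene, and Msl1 (0.648), and Dnajb1 to Bhmt2 (0.741), a methyltransferase of methionine synthesis, Leprot (0.668) and Pigu (0.642). Hsph1 was closest to Aprt-ps (0.794), Tuba4a (0.641) and Muc4 (0.615), the last of which was 0.409 with the place removed. Hspa1a was closest to Clec4g (0.795), Rasgrp4 (0.792) and Rhou (0.784), which were 0.370, 0.410 and 0.586 with the place removed. The mean of both Hspa8 probes was closest to Defb2 (0.696), Spag11a (0.688) and Edn3 (0.687). With the place removed these were 0.325, 0.655 and 0.314.

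The wider chaperone network had a share of calls near that of all genes. Of 129 genes in 11 lists, 116 were measured, and 40 were higher and 26 lower against the reference in the same limma fit, which is 56.9% against 55.8% of all genes. The split was 34.5% higher and 22.4% lower in the network against 26.5% and 29.3% of all genes, and with the place removed 36 genes of the network were higher and 29 lower, against 24.8% and 29.3% of all genes. The difference in split was not tested. Their median log2 ratio was 0.05. Among the other Hsp70 and Hsp110 genes 3 of 11 were higher and 4 lower. Hspa5, the Hsp70 of the endoplasmic reticulum, was the highest of the network at 0.71 ± 0.105 (SE, n = 31, adjusted p = 9.19e-07), and Hspa4l, an Hsp110, was at -0.68 ± 0.104 (adjusted p = 1.56e-06). Both measured relatives of the unmeasured cytosolic Hsp90 genes passed in opposite directions, with Hsp90b1 of the endoplasmic reticulum at 0.21 ± 0.0608 and mitochondrial Trap1 at -0.45 ± 0.117 (adjusted p = 0.00448 and 0.00150). Trap1 was at -0.19 with the place removed (adjusted p = 0.0358).

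Of the J proteins of types A and B, the relatives of Dnajb1, 5 of 16 were higher and 4 lower, from Dnaja4 (-0.32) to Dnajb6 (0.26), and of those of type C 8 of 26 were higher and 6 lower, from Dnajc30 (-0.34) to Dnajc12 (0.39, and 0.20 with the place removed). Partners that exchange nucleotide on Hsp70 or mark its clients for degradation were higher in 5 of 11 and lower in 2, with Bag1 at 0.44 ± 0.0679 (adjusted p = 1.80e-06) and Bag5 at -0.26. Bag5 was at -0.06 with the place removed and did not pass (adjusted p = 0.589). Of the Hsp90 cochaperones 5 of 14 were higher, with Chordc1 at 0.33, and 2 lower, with Tomm34 at -0.55. With the place removed 3 were higher and 3 lower, and Chordc1 was at 0.58. Chordc1 was 1 of the 5 genes with the element of 4 units found before Hspe1.

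Among relatives of Hspb1, 2 of 9 small heat shock genes were higher and 3 lower. Cryab, the lens and muscle protein alpha B-crystallin, was at -0.60 ± 0.116 (SE, n = 31, adjusted p = 4.93e-05), opposite to Hspb1, and Hspb9 at 0.25. Of the heat shock factors and their regulators, Hsbp1, which binds HSF1, was at 0.43 ± 0.153 (adjusted p = 0.0175) and Hsf2 at -0.15 ± 0.0565 (adjusted p = 0.0209), and the other 2 of 4 measured did not pass. The cytosolic chaperonin, a relative of Hsp60, had 4 of 9 subunits higher and 1 lower, from Cct5 (-0.17) to Cct6a (0.26), but 1 higher and 3 lower with the place removed, when Cct5 was at -0.30 and Cct6a at 0.07 (adjusted p = 0.473). Prefoldin, which feeds that chaperonin, had 3 of 6 subunits higher and 1 lower, and the lower one, Pfdn5, had the lowest value of the network at -1.41 ± 0.113 (adjusted p = 1.07e-11) while Pfdn6 was at 0.31. The list of mitochondrial proteases, which act beside Hsp60, also held Clpb and Clpx, which are not proteases themselves. Of its genes, 3 of 8 were higher and 1 lower, with Afg3l2 at 0.41 ± 0.0502 (adjusted p = 3.14e-08) and Clpp at -0.24. No gene of these lists passed between BXD33-42 and BXD1-32.

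**Figure D5:**
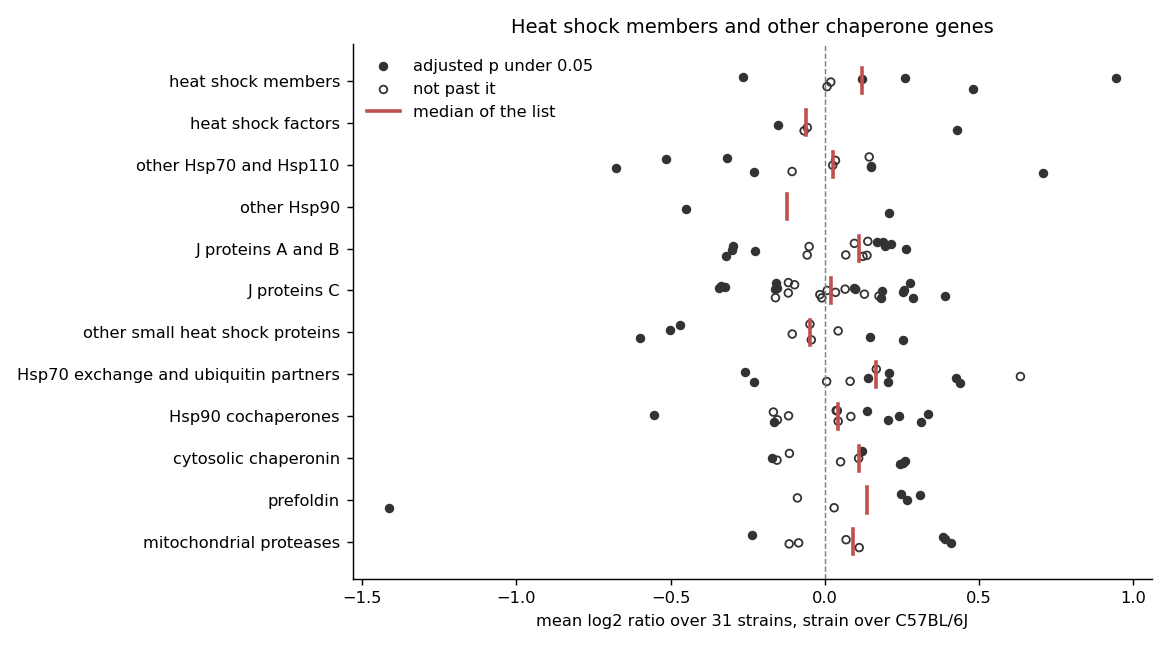
Mean log2 ratio over 31 strains (strain over C57BL/6J, x axis) of each measured gene of the heat shock members and of 11 other chaperone lists (y axis). Filled points passed an adjusted p of 0.05, open points did not, and red bars are list medians. Every list has genes on both sides of 0, and Pfdn5 lies farthest left at -1.41.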

How the data were processed

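RNA of 31 BXD strains was measured on spotted 2-colour arrays, 1 for each strain, against a common C57BL/6J reference. The deposited values are log2 ratios as far as the values and labels show, made by the authors with R 2.0.0 and limma per the submitters' processing notes. The steps, the base and the direction of the ratio are not given in the sources used here, and log2 of strain over reference was taken as likely. Sorted values were identical on all arrays. Signal over background is unknown, and precision is limited by how many arrays there are.

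Probes were named from the platform annotation, with 16874 of 23040 having 1 gene name, 134 several and 6032 none, and 16196 matching RefSeq. Each probe's mean was tested against 0, and BXD33-42 against BXD1-32, with limma 3.58.1 in R 4.3.3 (lmFit, eBayes, 2-sided, Benjamini-Hochberg over all probes or all genes, threshold 0.05), after tests on simulated data. Probes of a gene were averaged for gene values. The place of a spot in the repeat of 480 was removed by subtracting, on each array, the median of the spots at that place. Correlations used 100000 permutations, 2-sided. Members and lists were chosen with earlier results of these data known. Named genes were all measured members, the highest and lowest gene past the threshold of each list, and the 3 genes most correlated with each member. Alternatives were median centring, spot place, array weights, a test against 0.2, the first principal component, leaving out BXD15 and BXD38 or each strain, and each group alone.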

Additional observations from a re-analysis of the deposited data

How the results depend on the processing

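Leaving out 1 strain was not part of the next count. Of 289 single values recomputed under the other alternatives, 247 kept their direction and their side of the threshold. A further 20 kept the direction and lost the call, and 22 turned round. All of those 22 were values that had passed no test. Genes with 1 probe enter the count by probe and by gene, and of the correlations only chosen pairs enter. Some alternatives, such as the test against 0.2, cannot turn a direction, so part of the 247 was fixed in advance. Against a fold margin of 0.2 on the log2 scale, 4791 of 23040 probes and 2597 genes passed, in place of 13238 and 8418, and 3 heat shock probes and 2 heat shock genes were past it. In BXD33-42 alone, added after seeing the data, 3393 probes and 1722 genes passed, with 2 heat shock probes and 1 heat shock gene. Between BXD33-42 and BXD1-32, in place of 2 probes and 1 gene, 1 and 0 passed with the spot place removed or without BXD15 and BXD38, 0 and 0 with the first principal component, 116 and 54 with array weights, and 0 to 33 probes and 0 to 4 genes when 1 strain was left out, the 33 without BXD33. No heat shock probe was among them in any of the settings for which members are listed. Taking each Hspa8 probe in place of their mean gave 1 pair past the threshold in place of 0.

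The Hsph1 mean turned to -0.021 with the place removed, -0.0091 with array weights (-0.0094 by gene) and -0.16 in BXD33-42 alone, and the Hspd1 mean to -0.0060 after centring and -0.031 in BXD1-32 alone. Leaving out 1 strain gave -0.022 to 0.047 for Hsph1 and -0.015 to 0.043 for Hspd1. For the group difference, Hspd1 turned to -0.038 and Hspa1a to -0.073 with the place removed. With the first component, Hspa8 probe 1 turned to -0.042, probe 2 to 0.00026 and their mean to -0.021, and without BXD15 and BXD38 the mean stood at -0.11. Leaving out 1 strain gave -0.061 to 0.51 for probe 1 and -0.11 to 0.19 for the mean. The correlation of Hspd1 with Hspe1 turned to -0.132 with the place removed and -0.0146 without BXD15 and BXD38, and that of the Hspa8 probes to 0.0109 with the first component removed and 0.0127 without those strains. The mean call of Hspa8 probe 2 was lost in BXD1-32 alone (limma adjusted p = 0.0589), as was that of the Hspa8 gene mean (limma adjusted p = 0.0601), and those of Hspa8 probe 1, Hspa1a, Hspb1, Dnajb1 and the Hspa8 gene mean in BXD33-42 alone. The Dnajb1 call was also lost after centring (limma adjusted p = 0.0658 by probe and 0.0663 by gene). The causes were not tested. No paired analysis was possible because the groups share no strain numbers.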
